A study of Homo sapiens with 48 samples.

Results

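A set of 10 genes of the YAP/TEAD system was followed through 48 RNA-seq libraries of uveal melanoma cells: the coactivator genes YAP1 and WWTR1 (which encodes TAZ), the DNA-binding partners TEAD1 and TEAD4, and the genes CCN1 (CYR61), CCN2 (CTGF), ANKRD1, AMOTL2, LATS2 and AJUBA, which are targets or regulators of YAP and TAZ. They were taken by name and are 10 of the 58870 genes counted. The cells were the established uveal melanoma lines 92-1, MEL202 and MP41, all labelled wild type. Each line received FHT-1015, which inhibits both SMARCA4 and SMARCA2, the ATPases of BAF chromatin remodelling complexes, or the vehicle DMSO, for 4 h or 24 h. Line 92-1 also received IDE196, a protein kinase C inhibitor, for 4 h or 24 h, with DMSO samples of its own. Each of the 16 groups had 3 biological replicates. The doses are not given in the labels, and neither are the passages or dates of the replicates, so p-values measure the spread between these samples.

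YAP and TAZ are coactivators that cannot bind DNA by themselves and act through TEAD factors. The Hippo kinases LATS1 and LATS2 phosphorylate them, which keeps them out of the nucleus, and angiomotins such as AMOTL2 hold them in the cytoplasm or at junctions, while the LIM protein AJUBA restrains LATS. In uveal melanoma, activating mutations of GNAQ or GNA11 signal to protein kinase C and to YAP. CCN1 and CCN2, secreted matricellular proteins, and ANKRD1, a muscle ankyrin repeat protein, are the most used readouts of YAP activity, and AMOTL2, LATS2 and AJUBA are target genes that feed back on the pathway.

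The sequences before the transcription starts are shown because TEAD factors recognise GGAATG, whose reverse complement is CATTCC. RefSeq promoter windows of 300 bases (250 before a start and 50 after it, GRCh38.p14) were available for 7 of the 10 genes, in 10 windows, and not for TEAD1, TEAD4 or CCN1. GGAATG on either strand stood in 6 of the 10 windows, 1 window each of YAP1, CCN2, ANKRD1, AMOTL2, LATS2 and AJUBA, and in 14% of all 35116 windows in the table. CCN2 had 3 copies, at 169, 104 and 95 bases before its start, and 0.128% of all windows had at least 3. The AP-1 motif TGANTCA was found in 1 window, that of ANKRD1, and in 7.71% of all windows. The stretches below are written 5′ to 3′ on the gene's strand with the motif in capitals. They are the 250 bases before the CCN2 start (chr6:131951373-131951622, minus strand) and 30 bases around the motif of YAP1 (chr11:102110273-102110302, plus strand, 162 bases before the start), AMOTL2 (chr3:134374499-134374528, minus strand, 69 before), AJUBA (chr14:22976884-22976913, minus strand, 59 before), ANKRD1 (chr10:90921290-90921319 and chr10:90921198-90921227, minus strand, 220 and 128 before) and LATS2 (chr13:21061560-21061589, minus strand, 9 after). The ANKRD1 window closer to the start lies within the gene as GENCODE release 29 draws it, and the AMOTL2 and AJUBA windows belong to starts inside the GENCODE gene. WWTR1 had no match in either of its windows. The genes were taken by name as parts or targets of this system, so the shares of windows are descriptions. A match describes these letters and was not tested for binding or for a part in any change of level.
CCN2: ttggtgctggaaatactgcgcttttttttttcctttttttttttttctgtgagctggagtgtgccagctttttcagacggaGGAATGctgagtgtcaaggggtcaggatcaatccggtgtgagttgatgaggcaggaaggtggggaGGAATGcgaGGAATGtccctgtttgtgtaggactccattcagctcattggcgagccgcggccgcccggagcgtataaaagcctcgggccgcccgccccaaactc
YAP1: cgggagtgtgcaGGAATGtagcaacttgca
AMOTL2: ctgaaactctcaCATTCCtggcatagcagc
AJUBA: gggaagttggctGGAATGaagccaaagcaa
ANKRD1 distal: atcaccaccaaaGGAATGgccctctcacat
ANKRD1 proximal: gacactgagtctGGAATGaaaattcacctg
LATS2: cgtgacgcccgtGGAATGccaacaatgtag

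Depth ranged from 11394088 to 32317711 reads in genes per library. The second FHT-1015 library of MEL202 at 4 h had 17592 genes with a read, against 20023 or more elsewhere. Among the genes of the melanocyte lineage, MITF lay between 65.1 and 645 CPM (reads scaled to a common library total) and PMEL between 628 and 10013 CPM over the 48 libraries, while DCT went down to 0.057 CPM. The summed level of 7 lineage genes in 92-1 was 18761 to 22821 CPM in DMSO at 24 h and 4438 to 5147 CPM with FHT-1015 at 24 h. At 4 h it was already lower there, 20269 to 21766 CPM in DMSO and 15228 to 17386 CPM with FHT-1015, whereas the 4 h groups of MEL202 and MP41 overlapped. In MEL202 that sum went from 7616 to 9752 CPM in DMSO to 2741 to 3112 CPM, and in MP41 from 11884 to 12446 CPM to 5268 to 5672 CPM. Its part in the results for the YAP/TEAD genes was not tested. Summed markers of fibroblasts (5 genes) reached at most 42.0 CPM in any library, those of epithelium (5 genes) 22.8 CPM, of endothelium (4 genes) 4.28 CPM and of leukocytes (5 genes) 5.98 CPM. CDH5 of endothelium was at 0 in 36 libraries and CD3E of T cells in 45. The fibroblast sum was 6.41 to 8.61 CPM in MEL202 with DMSO at 24 h and 32.5 to 40.4 CPM with FHT-1015, and in 92-1 it was 3.40 to 3.88 and 10.7 to 11.5 CPM. In MP41 it was 28.3 to 42.0 CPM in DMSO and 28.7 to 38.8 CPM with FHT-1015, which overlapped. In RNA from whole cultures, fewer cells of a type and less RNA per cell cannot be told apart.

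Without drug, WWTR1, CCN1 and CCN2 were far lower in 92-1 than in the other lines. WWTR1 (chromosome 3, 149517235 to 149736714, minus strand) was close to absent in 92-1: the 6 DMSO libraries of its FHT-1015 experiment had 5 to 13 reads each, with a median of 0.43 CPM, whereas the median was 153 CPM in MEL202 (69.0 to 175) and 149 CPM in MP41 (101 to 164). The log2 difference was 8.24 for MEL202 against 92-1 (SE 0.24, adjusted p 2.51e-23 by edgeR's quasi-likelihood test) and 8.22 for MP41 against 92-1 (SE 0.24, adjusted p 1.57e-23 by edgeR). CCN1 and CCN2 were also lowest in 92-1: median CCN2 was 2.61 CPM in 92-1, 84.7 CPM in MEL202 and 141 CPM in MP41, and median CCN1 was 24.3, 143 and 149 CPM. These medians pool the DMSO libraries of 4 h and 24 h, which lay apart in MP41. There mean CCN2 was 224 CPM at 4 h and 53.5 CPM at 24 h, and mean CCN1 was 224 and 62.6 CPM. In MEL202 mean CCN2 was 79.6 and 83.7 CPM, and mean CCN1 was 163 and 145 CPM. On average MP41 thus lay above MEL202 at 4 h and below it at 24 h for both genes. YAP1 itself (chromosome 11, 102110461 to 102233423, plus strand) had medians of 152, 192 and 211 CPM, a level in 92-1 that was 1.32-fold lower than in either other line (adjusted p 0.00473 and 0.00324 by edgeR). AJUBA went the other way, lower than in 92-1 by 0.41 on the log2 scale in MEL202 and by 0.78 in MP41.

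In all, 9 of the 10 genes differed between MEL202 and 92-1 in DMSO (52.9% of all genes tested did), 8 of them higher in MEL202, and TEAD4 did not pass. All 10 differed between MP41 and 92-1 (65.0% of all genes), 9 higher in MP41. Between MP41 and MEL202 4 differed (56.0% of all genes): TEAD4 was 0.71 higher (SE 0.11) and LATS2 0.86 higher (SE 0.13) on the log2 scale in MP41, and CCN1 was lower by 0.38 (SE 0.15) and AJUBA by 0.37 (SE 0.09). The CCN1 call between MP41 and MEL202 was lost in 6 of 36 leave-one-out fits and with library size alone and limma-voom, at an adjusted p of up to 0.214 in both of these. The TEAD1 call between MEL202 and 92-1 (0.43, SE 0.18) was lost in 7 such fits and with RLE and DESeq2 (adjusted p up to 0.059), and these same settings called TEAD4 (adjusted p down to 0.0389). CCN2 between MP41 and MEL202 was called without the filter and with limma-voom. These tests pool the DMSO libraries of 4 h and 24 h, and in a comparison at each time alone, added after the data were seen, the calls between MP41 and MEL202 were not the same at both times (the change between the times was not tested): 4 genes differed at 4 h (43.2% of all genes), all higher in MP41, and 3 at 24 h (49.3%), 1 higher and 2 lower. CCN1 in DMSO was 224 ± 16.7 CPM in MP41 and 163 ± 44.3 CPM in MEL202 at 4 h (SD, n = 3), a log2 difference of 0.43 that did not pass (adjusted p 0.0995 by edgeR). At 24 h it was 62.6 ± 24.5 and 145 ± 22.0 CPM, a log2 difference of -1.20 (SE 0.21, adjusted p 2.4e-05 by edgeR). AJUBA was at close levels in both lines at 4 h (46.1 and 44.9 CPM on average, log2 difference 0.02, SE 0.12) and lower in MP41 at 24 h (-0.76, SE 0.12). CCN2 (1.47, SE 0.36) and TEAD1 (0.71, SE 0.25) were higher in MP41 at 4 h and not called at 24 h, and LATS2 was called higher at 4 h only. TEAD4 was higher in MP41 at both times. Against 92-1, 7 and 8 genes differed in MEL202 at 4 h and 24 h (38.1% and 38.0%) and 10 and 7 in MP41 (48.8% and 56.6%). YAP1 did not pass in MEL202 at 4 h (adjusted p 0.256 by edgeR) or in MP41 at 24 h (adjusted p 0.197 by edgeR), and TEAD1 passed only in MP41 at 4 h. With so many genes differing, these counts do not set the 10 genes apart. The labels give no batch, so a line and any batch tied to it cannot be told apart.

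Per kilobase of exon (RPKM), YAP1 was the highest of the 10 in 92-1, with a median of 24.1 RPKM over 6 DMSO libraries, followed by TEAD4 at 18.6 RPKM, AMOTL2 at 13.8, TEAD1 at 12.4, LATS2 at 11.6, CCN1 at 9.89, AJUBA at 9.29, CCN2 at 1.12, WWTR1 at 0.051 and ANKRD1 at 0 RPKM. Ranges of neighbours in this order overlapped except between TEAD4 and AMOTL2, AJUBA and CCN2, and CCN2 and WWTR1. In MEL202 the order began with CCN1 (58.4 RPKM), CCN2 (36.2), YAP1 (30.5) and AMOTL2 (30.5), and CCN1 lay above CCN2 with no overlap. In MP41 the order differed between the times: the highest means at 4 h were CCN2 (95.6 RPKM), CCN1 (91.1), LATS2 (50.8) and YAP1 (35.7), and at 24 h YAP1 (26.7 RPKM), TEAD4 (26.1), CCN1 (25.5), CCN2 (22.9) and LATS2 (22.5). AJUBA and ANKRD1 were the lowest in both of these lines. The separate DMSO set of 92-1 from the IDE196 experiment gave higher values for most of the genes, for example 32.4 RPKM for YAP1 and 25.6 RPKM for AMOTL2, and is used only against IDE196.

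Some reads cannot be assigned with certainty. Exons of YAP1, WWTR1 and CCN2 are overlapped by a gene on the opposite strand, WWTR1-AS1 in the case of WWTR1, and the library kit does not mark strand. Exons of AMOTL2 and AJUBA are overlapped by a gene on the same strand, which marking strand would not separate.

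**Figure D1:**
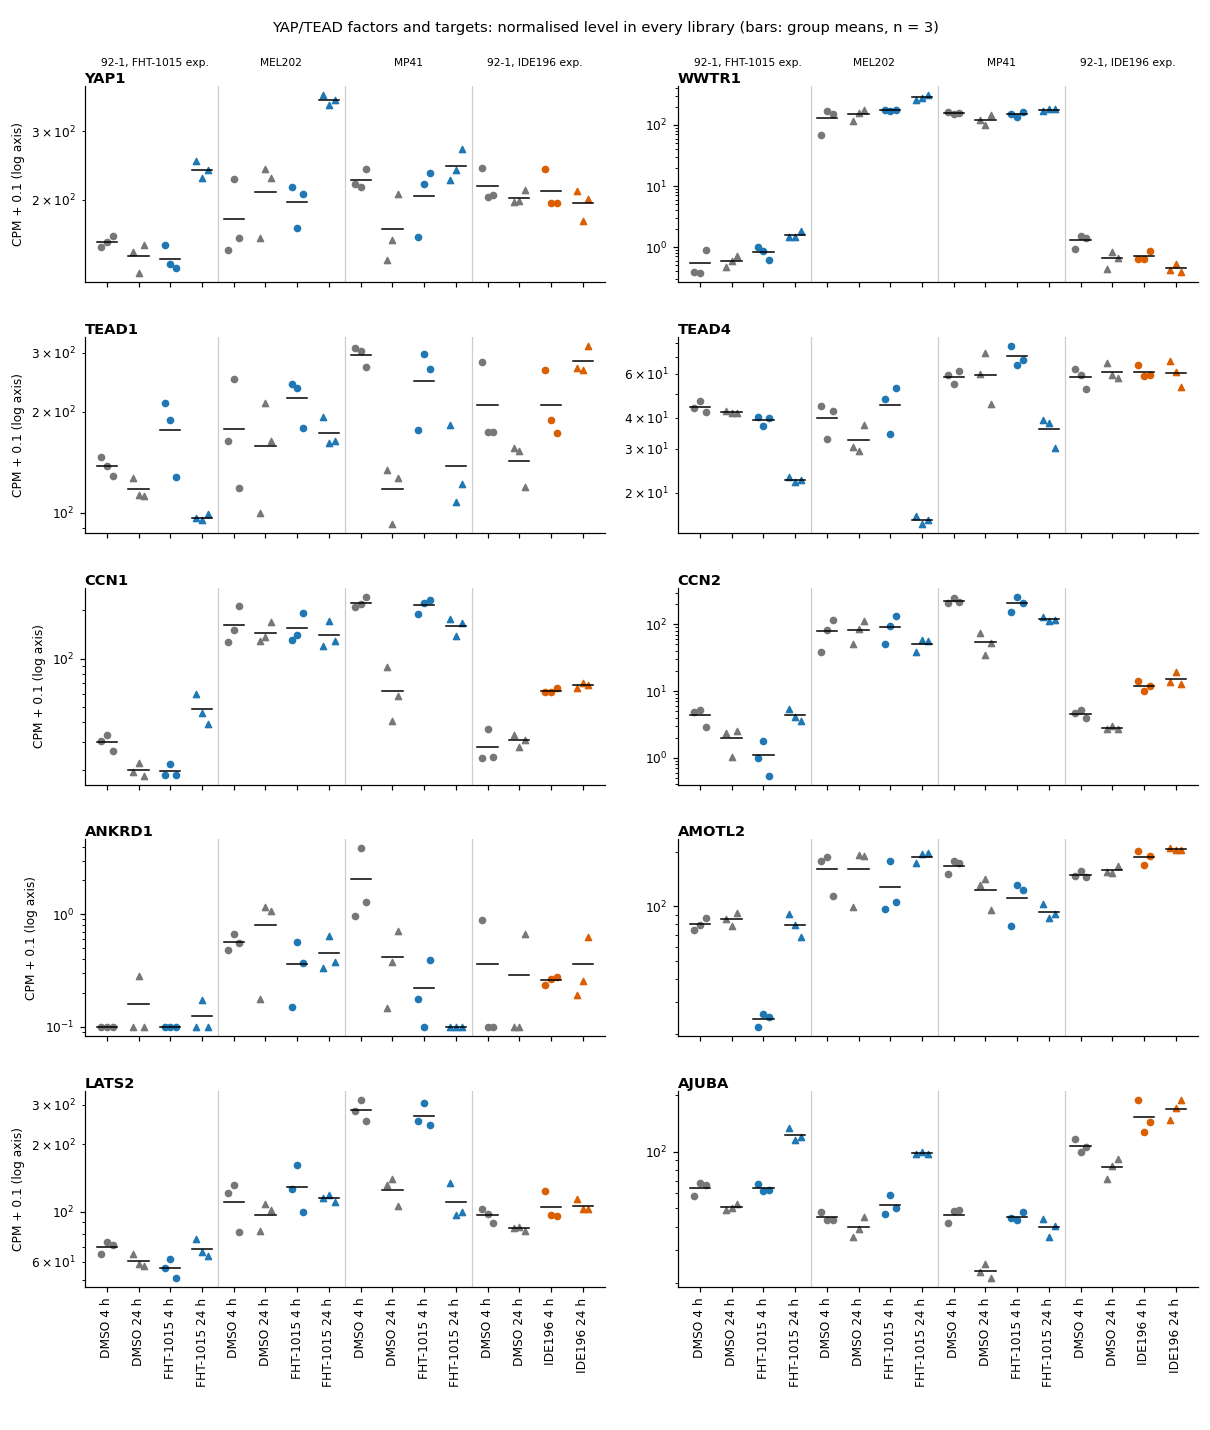
Level of each gene in every library, as CPM plus 0.1 on a log axis, for DMSO (grey), FHT-1015 (blue) and IDE196 (orange) at 4 h (circles) and 24 h (triangles), with a bar at each group mean (n = 3). WWTR1 lies at 1.71 CPM or lower in every library of 92-1 and at 69.0 CPM or higher in every library of MEL202 and MP41, and TEAD4 with FHT-1015 at 24 h lies below its DMSO libraries in each line.

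The first comparison asks how the coactivators and TEAD factors responded to FHT-1015. At 24 h YAP1, WWTR1 and AJUBA rose and TEAD4 fell in each of the 3 lines. Of the 9 genes tested in every line, these 4 changed in the same direction in all 3, against 12.7% of all 13677 genes tested in each. At 4 h YAP1, WWTR1 and TEAD4 passed the test in none of the lines by edgeR. With limma-voom WWTR1 (limma adjusted p 0.0472) and TEAD4 (limma adjusted p 0.00975) passed in 92-1.

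YAP1 in 92-1 at 24 h was 146, 129 and 153 CPM in DMSO and 251, 228 and 238 CPM with FHT-1015. Every treated library lay above every DMSO library. The log2 fold change was 0.79 (SE 0.08, adjusted p 5.01e-07 by edgeR). In MEL202 it was 159, 240 and 227 CPM in DMSO and 373, 351 and 361 CPM with the drug, again without overlap, or 0.84 on the log2 scale (SE 0.22, adjusted p 0.0166 by edgeR). In MP41 YAP1 was 139, 157 and 207 CPM in DMSO and 225, 238 and 269 CPM with the drug, without overlap, a log2 effect of 0.64 (SE 0.16, adjusted p 0.00847 by edgeR). The test of a difference among the 3 lines did not pass (adjusted p 0.675 by edgeR). Earlier, at 4 h, YAP1 had log2 fold changes of -0.12 in 92-1 (95% interval -0.28 to 0.03), 0.16 in MEL202 (-0.27 to 0.59) and -0.13 in MP41 (-0.45 to 0.19). The MEL202 call at 24 h was lost in 5 of 12 leave-one-out fits, those without replicate 1 or 3 of DMSO at 24 h or any of the 3 FHT-1015 libraries at 24 h, with an adjusted p of up to 0.0848 by edgeR.

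WWTR1, the paralogue that encodes TAZ, rose at 24 h in each line from levels far apart. In 92-1 the DMSO libraries at 24 h had 0.378, 0.485 and 0.612 CPM, or 8, 8 and 10 reads, and the FHT-1015 libraries 1.35, 1.34 and 1.71 CPM, or 20, 18 and 30 reads. The groups did not overlap, and the log2 fold change was 1.63 (SE 0.41, adjusted p 0.0027 by edgeR), yet the treated level stayed under the lowest DMSO library of either other line. In MEL202 WWTR1 went from 117, 154 and 175 CPM to 260, 276 and 313 CPM, a difference of 0.98 in log2 units (SE 0.28, adjusted p 0.0271 by edgeR). In MP41 it went from 120, 101 and 147 CPM to 168, 185 and 180 CPM, a change of 0.63 in log2 (SE 0.15, adjusted p 0.0048 by edgeR). Neither pair of groups overlapped, and the test of a difference among lines did not pass (adjusted p 0.205 by edgeR), except with the summed stranded columns (adjusted p 0.0431 by edgeR). Each of the 6 MEL202 libraries at 24 h was needed for the MEL202 call, with an adjusted p of up to 0.121 by edgeR without one of them.

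TEAD4 (chromosome 12, 2959330 to 3040673, plus strand), a DNA-binding partner of YAP, fell while YAP1 rose. In 92-1 it was 42.4, 41.8 and 41.6 CPM in DMSO at 24 h and 23.0, 21.9 and 22.3 CPM with FHT-1015, or -0.86 on the log2 scale (SE 0.08, adjusted p 3.06e-07 by edgeR). In MEL202 the values were 30.4, 29.4 and 37.4 CPM against 15.9, 14.8 and 15.4 CPM, a log2 effect of -1.02 (SE 0.20, adjusted p 0.00312 by edgeR). In MP41 they were 59.7, 72.7 and 45.5 CPM against 39.1, 38.1 and 30.2 CPM, a difference of -0.62 in log2 units (SE 0.18, adjusted p 0.0176 by edgeR). No groups overlapped in any of the lines. The MP41 call was lost without replicate 3 of FHT-1015 at 24 h (adjusted p 0.0846 by edgeR). With only the 6 MP41 libraries at 24 h in the fit, no MP41 call of these factors passed: YAP1 gave 0.58 (adjusted p 0.066 by edgeR), WWTR1 0.58 (adjusted p 0.0607 by edgeR) and TEAD4 -0.68 (adjusted p 0.0694 by edgeR). Against the MP41 DMSO libraries at 4 h, TEAD4 still fell (-0.65, adjusted p 0.0139 by edgeR), while YAP1 (0.16, adjusted p 0.485 by edgeR) and WWTR1 (0.23, adjusted p 0.259 by edgeR) did not pass.

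TEAD1 (chromosome 11, 12674591 to 12944483, plus strand), the other TEAD factor followed here, did not follow TEAD4. In 92-1 at 4 h it was 146, 138 and 129 CPM in DMSO and 213, 189 and 128 CPM with FHT-1015. The groups overlapped because the lowest treated library lay under all 3 DMSO libraries, and the rise of 0.38 on the log2 scale (SE 0.13, adjusted p 0.0359 by edgeR) did not hold in 6 of 12 leave-one-out fits, with an adjusted p of up to 0.174 by edgeR. These were the fits without any of the 3 DMSO libraries at 4 h, replicate 1 or 2 of FHT-1015 at 4 h, or replicate 2 of FHT-1015 at 24 h. With only the 6 samples compared it did not pass either (adjusted p 0.0715 by edgeR). At 24 h the log2 fold changes of TEAD1 were -0.23 in 92-1, 0.17 in MEL202 and 0.33 in MP41, none of them called, though that in 92-1 was with only the 6 samples compared (adjusted p 0.0222 by edgeR). Against the MP41 DMSO libraries at 4 h, TEAD1 at 24 h was lower (-1.05, SE 0.23, adjusted p 0.00362 by edgeR).

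**Figure D2:**
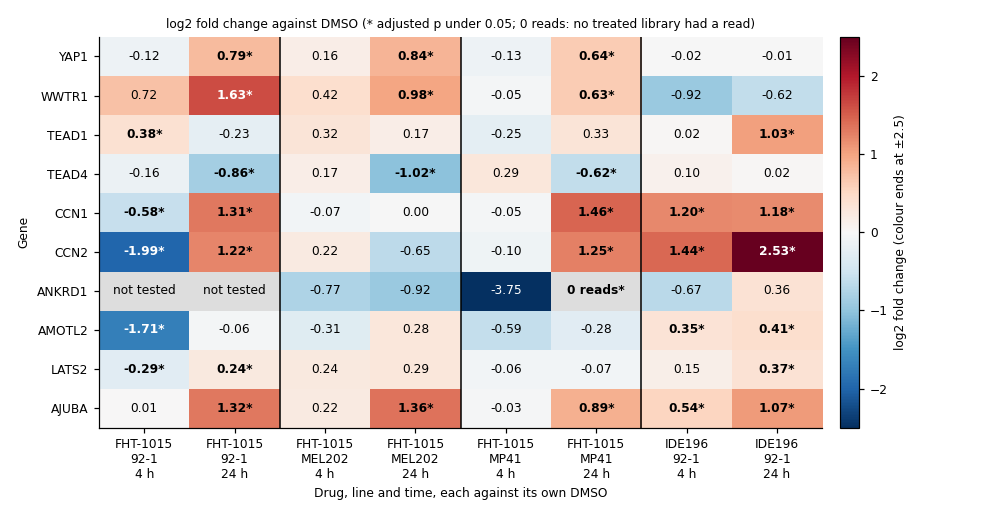
Log2 fold change of each gene (rows) against its own DMSO for each drug, line and time (columns), red for higher and blue for lower, with an asterisk at an adjusted p under 0.05. YAP1, WWTR1 and AJUBA carry a positive value with an asterisk and TEAD4 a negative one in the 3 columns of FHT-1015 at 24 h, while the 4 h columns of MEL202 and MP41 carry none.

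The next question is whether the target genes followed the coactivators. In 92-1 CCN1, CCN2, AMOTL2 and LATS2 fell at 4 h, and CCN1, CCN2 and LATS2 were then higher than DMSO at 24 h, so the sign of these 3 effects turned between the times. In MP41 CCN1 and CCN2 were higher at 24 h and in MEL202 neither passed the test at either time. At 4 h in 92-1 5 of the 9 genes tested changed (29.5% of all genes did), 1 higher and 4 lower (12.9% and 16.7% of all genes), and at 24 h 7 of 9 changed (60.6%), 6 higher and 1 lower (29.2% and 31.4%). The median log2 fold change of the 9 was -0.16 at 4 h and 0.79 at 24 h, against 0.01 and -0.0008 for all genes, and with 60.6% of genes called the count at 24 h is close to the background. In MEL202 the numbers were 0 of 10 at 4 h (0.679% of all genes) and 4 of 10 at 24 h (18.8%), 3 higher and 1 lower (8.69% and 10.1%). In MP41 they were 0 of 10 at 4 h (0.225%) and 7 of 10 at 24 h (36.1%), 5 higher and 2 lower (17.4% and 18.7%). Against the MP41 DMSO libraries at 4 h, in place of those at 24 h, the same treated libraries gave 0 higher and 6 lower of the 10 (32.9% of all genes were called, 16% higher and 16.9% lower). The medians of the 10 at 24 h were 0.22 in MEL202 and 0.48 in MP41, against -0.01 and 0.07 for all genes. At 4 h no gene in MEL202 and 2 in MP41, ANKRD1 and AMOTL2, had an unadjusted p under 0.05 with edgeR. Of all genes tested, 1365 of 15913 in MEL202 and 899 of 15543 in MP41 did. DESeq2 called 0 and 1 of them at 4 h of the 10 genes in these lines, and limma-voom with quality weights 0 and 2. The shares of all genes called by these other methods are not given.

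CCN1 (chromosome 1, 85580761 to 85583962, plus strand), whose secreted protein binds integrins, was 30.4, 33.0 and 26.4 CPM in 92-1 with DMSO at 4 h and 18.6, 21.9 and 18.5 CPM with FHT-1015. The groups did not overlap, and the log2 fold change was -0.58 (SE 0.14, adjusted p 0.00579 by edgeR). At 24 h it was 19.2, 22.2 and 18.4 CPM in DMSO and 59.4, 45.6 and 39.0 CPM with the drug, also without overlap, a change of 1.31 in log2 (SE 0.14, adjusted p 1.09e-06 by edgeR). The 24 h effect exceeded the 4 h effect by 1.90 (SE 0.20, adjusted p 2.4e-06 by edgeR). DMSO itself was lower at 24 h than at 4 h by a log2 difference of -0.55 that did not pass the test (adjusted p 0.169 by edgeR), but did without the filter, with DESeq2 and with limma-voom (adjusted p down to 0.00338). The treated libraries at 24 h lay above the DMSO libraries of both times.

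CCN2 (chromosome 6, 131948176 to 131951373, minus strand), a pro-fibrotic relative of CCN1, took the same course at a lower level in 92-1. In DMSO at 4 h it was 4.82, 5.03 and 2.77 CPM and with FHT-1015 0.888, 1.70 and 0.440 CPM, or 21, 38 and 7 reads. The log2 fold change was -1.99 (SE 0.40, adjusted p 0.00145 by edgeR). At 24 h CCN2 was 2.27, 0.910 and 2.45 CPM in DMSO and 5.26, 4.02 and 3.47 CPM with the drug, or 1.22 on the log2 scale (SE 0.38, adjusted p 0.012 by edgeR). Treated and DMSO libraries did not overlap at either time. The 24 h call was lost without replicate 2 of DMSO at 24 h, the lowest library of its group (adjusted p 0.0557 by edgeR). Between the times DMSO itself went down by a log2 difference of -1.13 (SE 0.38), which did not pass the test (adjusted p 0.371 by edgeR) but did without the filter (adjusted p 0.00907 by edgeR). The treated mean at 24 h, 4.25 ± 0.92 CPM (SD, n = 3), was close to the DMSO mean at 4 h, 4.21 ± 1.25 CPM, and these libraries overlapped.

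In MEL202 CCN1 at 24 h was 128, 137 and 170 CPM in DMSO and 120, 171 and 128 CPM with FHT-1015, which overlapped, and the log2 fold change was 0.00 (95% interval -0.47 to 0.47). CCN2 was 51.3, 86.4 and 113 CPM in DMSO and 39.0, 57.7 and 57.0 CPM with the drug, a log2 fold change of -0.65 (95% interval -1.45 to 0.14). With limma-voom and quality weights the lower CCN2 passed the test (-0.89, limma adjusted p 0.00638). The interval of CCN1 does not reach the 1.31 and 1.46 of the other lines. A test across the 3 lines found unequal 24 h effects for CCN1 (adjusted p 0.00133 by edgeR) and CCN2 (adjusted p 0.0146 by edgeR), although YAP1 and WWTR1 rose in all 3. The CCN2 difference was lost without replicate 3 of DMSO or replicate 1 of FHT-1015 of MEL202 at 24 h, with an adjusted p of up to 0.0645 by edgeR.

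In MP41 the rise of CCN1 and CCN2 at 24 h went together with a fall in the controls. CCN1 was 210, 219 and 242 CPM in DMSO at 4 h and 88.9, 40.4 and 58.5 CPM in DMSO at 24 h, a log2 difference of -1.89 (SE 0.23, adjusted p 0.00445 by edgeR). With FHT-1015 it was 191, 223 and 232 CPM at 4 h and 176, 138 and 167 CPM at 24 h. Against DMSO of the same time the log2 fold change at 24 h was 1.46 (SE 0.23, adjusted p 0.000263 by edgeR), with no overlap. Against DMSO at 4 h, a comparison added after the data were seen, the same treated libraries gave -0.43 (SE 0.22, adjusted p 0.157 by edgeR).

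CCN2 in MP41 behaved alike: 209, 245 and 217 CPM in DMSO at 4 h, 73.8, 34.2 and 52.6 CPM in DMSO at 24 h, and 129, 114 and 114 CPM with FHT-1015 at 24 h. The fold change on the log2 scale was 1.25 against DMSO at 24 h (SE 0.24, adjusted p 0.00128 by edgeR) and -0.86 against DMSO at 4 h (SE 0.24, adjusted p 0.0131 by edgeR), so the sign depends on the control. In MP41 5 of the 10 genes were lower in DMSO at 24 h than at 4 h (2.59% of all genes changed and 0.997% were lower): besides CCN1 and CCN2 (-2.12, SE 0.25), TEAD1 (-1.38, SE 0.23), LATS2 (-1.23, SE 0.18) and AJUBA (-1.06, SE 0.14). The TEAD1 call was lost without any 1 of the 3 DMSO libraries at 4 h, with an adjusted p of up to 0.0885 by edgeR, and without replicate 3 of DMSO at 24 h 8 of the genes were lower. The 2 comparisons share the DMSO libraries at 24 h. What set these controls apart at 24 h was not tested. In the other 3 experiments no YAP/TEAD gene changed in DMSO between the times by edgeR (0.344% of all genes in 92-1, 0% in MEL202 and 0.266% in the IDE196 set). At an unadjusted p under 0.05 there were 3, 0 and 4 of them. Of all genes 1382 of 15685, 330 of 15913 and 2214 of 15437 lay under that value. DESeq2 called 1, 0 and 1 of the YAP/TEAD genes, and its share of all genes is not given.

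**Figure D3:**
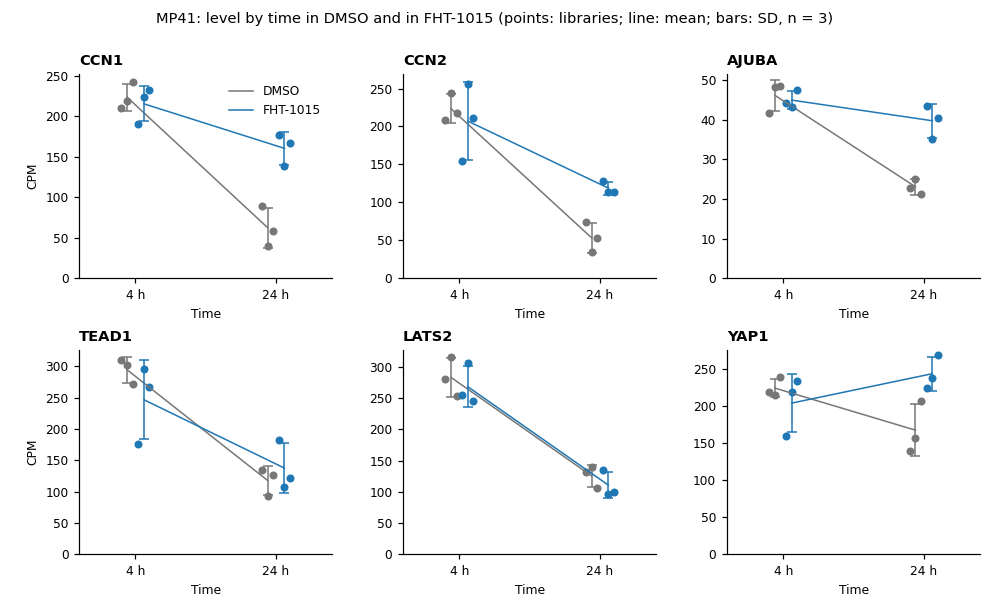
Level in CPM of 6 genes in MP41 at 4 h and 24 h with DMSO (grey) and FHT-1015 (blue); points are libraries, lines join group means and bars are the SD (n = 3). For CCN1, CCN2 and AJUBA the DMSO line falls further than the FHT-1015 line, so the treated mean at 24 h lies above DMSO at 24 h but not above DMSO at 4 h.

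AMOTL2 (chromosome 3, 134355874 to 134375479, minus strand), the angiomotin that binds YAP and is itself a target, had the lowest adjusted p of the 10 at 4 h in 92-1. It was 74.2, 79.2 and 85.9 CPM in DMSO and 21.8, 25.5 and 24.5 CPM with FHT-1015, a log2 effect of -1.71 (SE 0.11, adjusted p 3e-08 by edgeR) with a wide gap between the groups. At 24 h the values were 85.7, 77.6 and 91.9 CPM in DMSO and 90.5, 78.8 and 67.6 CPM with the drug, which overlapped, a log2 fold change of -0.06 (95% interval -0.27 to 0.15). At 4 h MP41 had 150, 178 and 173 CPM in DMSO and 77.6, 131 and 123 CPM with the drug. These groups did not overlap either, but the log2 fold change of -0.59 (SE 0.19) did not pass the test (adjusted p 0.395 by edgeR and 0.00619 by limma-voom). In MEL202 it was -0.31 at 4 h (95% interval -0.90 to 0.29). In MP41 at 24 h AMOTL2 was -0.28 against DMSO of that time (SE 0.19, adjusted p 0.255 by edgeR, but -0.44 and 0.00406 by limma-voom) and -0.79 against DMSO at 4 h (SE 0.19, adjusted p 0.00584 by edgeR).

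Among lines, the early AMOTL2 effect was not the same (adjusted p 0.0354 by edgeR), the only difference at 4 h among the 10 genes (1.38% of all genes differed). It was lost in 11 of 36 leave-one-out fits, including those without any 1 of the 6 libraries of 92-1 at 4 h, with an adjusted p of up to 0.131 by edgeR. CCN2 also differed at 4 h without the filter, with DESeq2 and with the summed stranded columns. At 24 h 3 of the 10 differed among lines (12% of all genes): CCN1, CCN2 and AJUBA (adjusted p 0.0467 by edgeR). The AJUBA difference was lost when any of 28 of the 36 libraries was left out, with an adjusted p of up to 0.171 by edgeR, and also with RLE, library size alone and no filter, with an adjusted p of up to 0.718 by edgeR, so it rests on the settings used.

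LATS2 (chromosome 13, 20973032 to 21061547, minus strand), the Hippo kinase that is also a YAP target, changed little against DMSO of the same time. In 92-1 it was 65.0, 73.5 and 71.5 CPM in DMSO at 4 h and 56.4, 61.5 and 50.7 CPM with FHT-1015, a difference of -0.29 in log2 units (SE 0.09, adjusted p 0.0255 by edgeR). At 24 h it was 64.9, 58.5 and 57.3 CPM against 75.8, 66.3 and 63.9 CPM, which overlapped, a change of 0.24 in log2 (SE 0.09, adjusted p 0.0366 by edgeR). The 4 h call was lost in 3 and the 24 h call in 7 of 12 leave-one-out fits, with an adjusted p of up to 0.0972 and 0.138 by edgeR, and without the filter neither passed (adjusted p 0.09 and 0.147 by edgeR). In MEL202 and MP41 the 24 h values were 0.29 (95% interval -0.18 to 0.76) and -0.07 (-0.42 to 0.28). Against the MP41 DMSO libraries at 4 h, the treated ones at 24 h were lower (-1.30, SE 0.18, adjusted p 0.000116 by edgeR). The LATS2 calls were lost without replicate 2 or 3 of DMSO at 4 h or replicate 3 of FHT-1015 at 4 h for the 4 h effect, and for the 24 h effect without any DMSO library at 4 h, replicate 2 or 3 of DMSO at 24 h, or replicate 1 or 2 of FHT-1015 at 24 h.

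AJUBA (chromosome 14, 22971174 to 22982642, minus strand), the LIM protein that restrains LATS kinases, rose at 24 h in each line. It was 49.1, 50.1 and 52.9 CPM in DMSO and 133, 115 and 119 CPM with FHT-1015 in 92-1, or 1.32 on the log2 scale (SE 0.09, adjusted p 3.86e-09 by edgeR). In MEL202 it was 35.1, 38.6 and 44.7 CPM against 97.3, 98.8 and 96.6 CPM, a log2 effect of 1.36 (SE 0.18, adjusted p 0.000178 by edgeR). In MP41 it was 22.9, 25.2 and 21.2 CPM against 43.6, 35.2 and 40.4 CPM, a difference of 0.89 in log2 units (SE 0.14, adjusted p 0.000303 by edgeR). No groups overlapped. AJUBA in MP41 DMSO at 4 h was 41.6, 48.2 and 48.6 CPM, and against these libraries the treated ones at 24 h gave -0.17 (adjusted p 0.387 by edgeR), a reversed sign, while in 92-1 and MEL202 the treated libraries exceeded DMSO at both times. At 4 h the log2 fold changes were 0.01, 0.22 and -0.03, none called.

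ANKRD1 (chromosome 10, 90912096 to 90921276, minus strand) was barely expressed and too low to be tested in the FHT-1015 experiment of 92-1, where 10 of 12 libraries had 0 reads and none more than 3. In MP41 it had 17, 76 and 23 reads in DMSO at 4 h, 1, 5 and 15 in DMSO at 24 h, 1, 0 and 8 with FHT-1015 at 4 h, and 0 in each FHT-1015 library at 24 h. At 4 h the groups did not overlap and the log2 fold change of -3.75 (SE 0.97) did not pass (adjusted p 0.221 by edgeR), but it did without the filter, with DESeq2, with limma-voom and with only the 6 samples compared (adjusted p 0.000207 to 0.0307). Taking 3 reads over the group as the floor, ANKRD1 was at least 8.0-fold lower with FHT-1015 at 24 h (adjusted p 0.0304 by edgeR). Most of the DMSO reads came from replicate 3, without which the bound was 3.72-fold. The call was lost without replicate 3 of DMSO at 24 h or any of the 3 treated libraries, with an adjusted p of up to 0.073 by edgeR, and with limma-voom (limma adjusted p 0.245). In MEL202 it had 1 to 31 reads per library and passed in no comparison with DMSO.

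The effects of FHT-1015 at the 2 times can also be set against each other. In 92-1 the later effect was unlike the earlier one for 8 of the 9 genes tested (45.5% of all genes), all but WWTR1. For TEAD1 and TEAD4 the later effect was lower (by 0.61, SE 0.18, and by 0.70, SE 0.11, on the log2 scale) and for the other 6 it was higher. In MEL202 only TEAD4 and AJUBA differed (6.89% of all genes) and in MP41 YAP1, WWTR1, TEAD4, CCN1, CCN2 and AJUBA (18.6%). Without the filter AJUBA in MEL202 (adjusted p 0.0572 by edgeR) and WWTR1 in MP41 were lost, the latter also with the summed stranded columns (adjusted p up to 0.0825 by edgeR).

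IDE196 is an inhibitor of protein kinase C, to which mutated GNAQ or GNA11 signals in uveal melanoma. It raised CCN1, CCN2, AMOTL2 and AJUBA in 92-1 at 4 h, 4 of 10 genes (16.2% of all genes, 6.89% higher and 9.30% lower), and these together with TEAD1 and LATS2 at 24 h, 6 of 10 (58.1%, 28.7% higher and 29.4% lower). None of the 10 fell, and at 24 h the count is close to the share of all genes. YAP1, WWTR1 and TEAD4, which moved with FHT-1015 at 24 h in the same line, did not pass the test with IDE196 at either time.

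CCN1 was 23.6, 36 and 24.1 CPM in the matching DMSO at 4 h and 61.6, 61.3 and 65.6 CPM with IDE196, a change of 1.20 in log2 (SE 0.13, adjusted p 5.32e-06 by edgeR). At 24 h it was 33.2, 27.8 and 30.7 CPM against 65.1, 70.3 and 68.4 CPM, or 1.18 (SE 0.13, adjusted p 5.2e-07 by edgeR). CCN2 was 4.55, 5.05 and 3.88 CPM against 14, 9.88 and 12 CPM at 4 h, or 1.44 on the log2 scale (SE 0.18, adjusted p 2.78e-05 by edgeR). At 24 h CCN2 was 2.56, 2.87 and 2.62 CPM against 13.8, 19.2 and 12.5 CPM, a log2 effect of 2.53 (SE 0.19, adjusted p 6.63e-09 by edgeR). Groups did not overlap for either gene at either time. Even so, treated CCN2 stayed under every DMSO library of MEL202 and MP41.

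TEAD1 was 156, 153 and 119 CPM in DMSO at 24 h and 270, 266 and 314 CPM with IDE196, a difference of 1.03 in log2 units (SE 0.18, adjusted p 0.000103 by edgeR) without overlap. AJUBA was 71.3, 84.1 and 91.4 CPM against 146, 171 and 188 CPM, a change of 1.07 in log2 (SE 0.14, adjusted p 3.03e-06 by edgeR). At 4 h AJUBA rose by 0.54 (SE 0.13, adjusted p 0.00951 by edgeR), which failed the test without replicate 1 of IDE196 at 4 h (adjusted p 0.0706 by edgeR). AMOTL2 rose by 0.35 at 4 h (SE 0.08) and 0.41 at 24 h (SE 0.08), and LATS2 by 0.37 at 24 h (SE 0.10). The IDE196 effect at 24 h exceeded that at 4 h for 3 of 10 genes (30.7% of all genes), TEAD1 by 1.01, CCN2 by 1.09 and AJUBA by 0.53.

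A direct test set the 2 drugs against each other in 92-1, with each drug read relative to the DMSO samples of its experiment. At 4 h they differed for 6 of the 10 genes (24.6% of all genes). FHT-1015 lay below IDE196 by 3.42 on the log2 scale for CCN2 (SE 0.43, adjusted p 8.06e-07 by edgeR), by 2.07 for AMOTL2 (SE 0.14, adjusted p 1.81e-11 by edgeR) and by 1.78 for CCN1 (SE 0.20, adjusted p 2.09e-07 by edgeR), and also for AJUBA and LATS2, while it lay above for WWTR1. At 24 h 6 of 10 differed (33.0%): FHT-1015 lay above for YAP1 (0.80, SE 0.13) and WWTR1 (2.25, SE 0.62) and below for TEAD1 (-1.26, SE 0.24), TEAD4 (-0.88, SE 0.13), CCN2 (-1.32, SE 0.42) and AMOTL2 (-0.47, SE 0.14). For CCN1 the difference at 24 h did not pass the test (0.13, 95% interval -0.27 to 0.52). The drugs have separate DMSO samples, and a drug and any batch tied to its set cannot be told apart. At 4 h only 3 genes differed without replicate 1 of IDE196 at 4 h. Of 24 leave-one-out fits, the difference at 4 h was lost in 9 for WWTR1, 4 for AJUBA and 2 for LATS2, and at 24 h in 4 for CCN2, with an adjusted p of up to 0.119 by edgeR. Without the filter the 4 h differences of WWTR1 (adjusted p 0.146 by edgeR) and LATS2 (adjusted p 0.0571 by edgeR) were lost.

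Other genes of the pathway, from lists drawn up for this purpose, put these changes in context. Of 17 other genes of a published YAP/TAZ target signature, 16 were tested in 92-1 at 4 h with FHT-1015. None rose and 10 fell (12.9% and 16.7% of all genes tested), with a median log2 fold change of -0.68 against 0.01 for all genes. Among those that fell were NT5E, an ectoenzyme that makes adenosine, with -1.04 (SE 0.24), MYOF, a membrane repair protein, with -1.02 (SE 0.27), and IGFBP3, a binding protein of insulin-like growth factors, with -1.29 (SE 0.38). At 24 h 7 rose and 5 fell (29.2% and 31.4% of all genes), with a median of 0.40: MYOF then rose by 1.27 (SE 0.26), while NT5E (-2.31, SE 0.27) and IGFBP3 (-3.03, SE 0.39) were again lower. The levels of these last genes were low, with means over the experiment of 4.39 CPM for NT5E and 1.19 CPM for IGFBP3.

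In MEL202 0 of 17 signature genes were called at 4 h (0.679% of all genes) and at 24 h 7 rose and 3 fell (8.69% and 10.1%). In MP41 0 of 16 were called at 4 h (0.225%) and 5 rose and 2 fell at 24 h (17.4% and 18.7%). With so few genes called at 4 h in these lines, the 0 there is the background. CRIM1, a transmembrane protein that binds BMPs, rose at 24 h in each line, by 1.31 in 92-1, 2.05 in MEL202 and 1.98 in MP41, and FJX1, a secreted relative of Drosophila four-jointed, fell in each, by 1.33, 0.74 and 1.75 on the log2 scale. IGFBP3 fell in 92-1 and MP41 (-1.72, SE 0.26) and rose in MEL202 (2.76, SE 0.52), where its mean over the experiment was only 1.61 CPM. With IDE196 4 of 15 signature genes rose and 2 fell at 4 h (6.89% and 9.30% of all genes), and 8 rose and 2 fell at 24 h (28.7% and 29.4%). NUAK2, a kinase of the AMPK family, rose at both times (1.41, SE 0.17, and 1.37, SE 0.18), and FJX1 fell at both (-2.03, SE 0.17, and -2.93, SE 0.18).

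**Figure D4:**
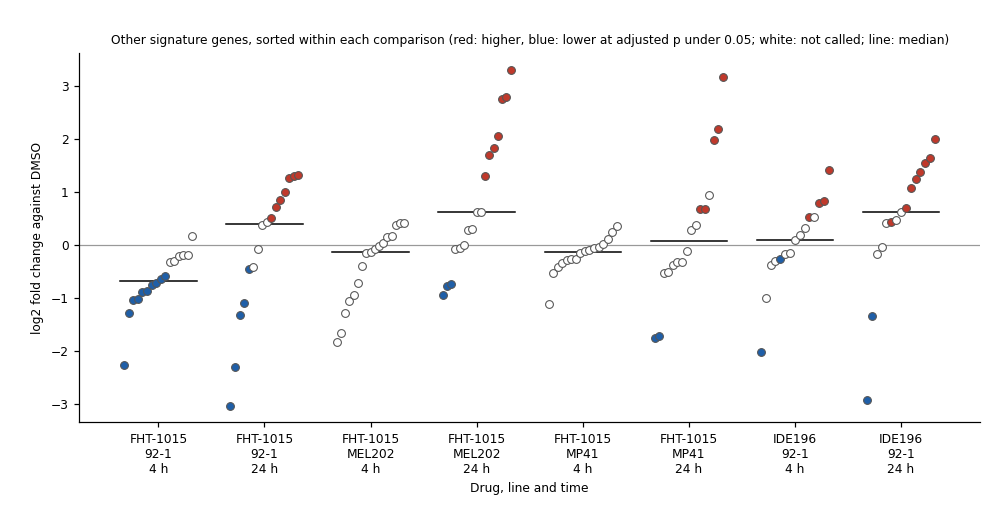
Log2 fold change against DMSO of the other YAP/TAZ signature genes, sorted within each comparison, with genes that rose in red, those that fell in blue, those not called in white and the median as a line. In 92-1 with FHT-1015 the median is -0.68 at 4 h and 0.40 at 24 h.

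Of the 6 other TEAD factors and VGLL cofactors (VGLL proteins compete with YAP for TEAD), 4 were tested in 92-1 with FHT-1015: 1 rose and 2 fell at 4 h (29.5% of all genes were called), and 2 rose and 1 fell at 24 h (60.6%). In MEL202 0 of 5 were called at 4 h (0.679%), and 2 rose and 1 fell at 24 h (18.8%). In MP41 0 of 4 were called at 4 h (0.225%) and 2 rose at 24 h (36.1%). With IDE196 1 of 5 rose and 1 fell at each time (16.2% and 58.1%). VGLL4 rose with FHT-1015 at 24 h in each line. Its mean in 92-1 went from 35.1 to 226 CPM (2.73 in log2, SE 0.16), from 115 to 447 CPM in MEL202 (2.01, SE 0.29) and from 80.3 to 172 CPM in MP41 (1.20, SE 0.14). VGLL2 rose in 92-1 (4.02, SE 0.17) and MEL202 (3.81, SE 0.59) and had 0 reads in every MP41 library. TEAD3 fell at 24 h in 92-1 (-0.72, SE 0.10) and MEL202 (-0.98, SE 0.29). With IDE196 VGLL4 fell at 4 h (-0.73, SE 0.13), and VGLL2 fell at 24 h (-3.44, SE 0.39). VGLL3 rose with IDE196 at both times: at 4 h by 2.60 (SE 0.44), and at 24 h it had at most 2 reads in a DMSO library and 6.75 to 11.1 CPM with the drug. In MP41 VGLL3 was higher with FHT-1015 at 24 h (1.92, SE 0.50), at 1.29 CPM on average against 0.34 CPM in DMSO, while DMSO at 4 h had 3.20 CPM. In 92-1 at 4 h TEAD2 (-0.65, SE 0.09) and TEAD3 (-0.45, SE 0.10) fell with FHT-1015 and VGLL2 rose (0.79, SE 0.16).

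Of the 14 Hippo kinases and scaffolds, 3 rose and 2 fell in 92-1 at 4 h with FHT-1015 (29.5% of all genes were called), and 3 rose and 5 fell at 24 h (60.6%), shares close to the background. In MEL202 0 were called at either time (0.679% and 18.8% of all genes), and in MP41 0 at 4 h (0.225%) and 3 higher with 2 lower at 24 h (36.1%). The DMSO controls of MP41 also moved: 3 of the 14 were lower at 24 h than at 4 h (0.997% of all genes were lower). Their median log2 difference was -0.74, against 0.02 for all genes. The part of this shift in the MP41 changes at 24 h was not tested. FRMD6, an upstream activator of the kinases, went opposite ways with the drugs at 4 h in 92-1: it rose with FHT-1015 (1.86, SE 0.13) from 33.2 ± 4.02 to 118 ± 13.7 CPM (SD, n = 3) and fell with IDE196 (-1.52, SE 0.13) from 55.1 ± 9.84 to 18.8 ± 3.43 CPM. NF2, which encodes the tumour suppressor merlin, fell at 24 h with FHT-1015 in 92-1 (-0.46, SE 0.09) and MP41 (-0.91, SE 0.20). With IDE196 1 of the 14 fell at 4 h (16.2% of all genes were called), and 2 rose and 4 fell at 24 h (58.1%).

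Of the 10 binding and junction regulators, 3 fell in 92-1 at 4 h with FHT-1015 (29.5% of all genes were called), and 4 rose and 3 fell at 24 h (60.6%), shares near the background. In MEL202 0 of 10 were called at 4 h (0.679%) and 1 rose at 24 h (18.8%). In MP41 0 of 9 tested were called at 4 h (0.225%), and at 24 h 2 rose and 4 fell (36.1%), with a median log2 fold change of -0.41. With IDE196 1 of 10 fell at 4 h (16.2%), and 5 rose and 2 fell at 24 h (58.1%). FAT4, an atypical cadherin of the planar polarity and Hippo systems, rose at 24 h with FHT-1015 by 4.90 in 92-1 (SE 0.21), 2.48 in MEL202 (SE 0.36) and 1.83 in MP41 (SE 0.27), and with IDE196 by 2.22 (SE 0.33). LIMD1, a LIM protein related to AJUBA, fell with FHT-1015 at 24 h in 92-1 (-0.80, SE 0.13) and MP41 (-0.78, SE 0.25), and so did SCRIB, a cell polarity scaffold (-0.54, SE 0.18, and -0.89, SE 0.18). AMOT, the angiomotin, fell in MP41 (-1.36, SE 0.26).

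Over the 16 group means, each centred within its experiment, YAP1 varied with WWTR1 (Pearson r 0.85) and against TEAD4 (r -0.89), and CCN1 with CCN2 (r 0.91). These are descriptions over groups that share libraries between genes. Among 9477 genes above 5 CPM, the genes most like YAP1 in this pattern were BRWD3 (r 0.98), SLIT2 (0.96) and OSBPL9 (0.96). Those most like CCN1 were CAMK2D (0.94), GTPBP8 (0.89) and HBEGF (0.87), and those most like AMOTL2 were LASP1 (0.89), NFKBIA (0.87) and PPP2R3A (0.86). CCN2 was not among the genes searched, so it is missing from the CCN1 list although its r with CCN1 was 0.91. CCN2 itself, compared with 9478 genes, was most like EIF2S3 (0.95), CCN1 (0.91) and JUN (0.88).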

How the data were processed

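RNA was sequenced from 48 samples with a poly-A kit that does not mark strand, per the labels' protocols. The authors deposited raw read counts per gene in the layout of STAR's gene counts, with no normalisation. The submitters' processing notes name hg38 and limma without a role, and the annotation is not given in the sources used here. The unstranded column was used (49.7% to 50.1% of stranded reads were on the first strand), 92 spike-ins with 0 reads were left out, and ambiguous reads made up 9.35% to 11.8%. Symbols, positions and exon lengths came from GENCODE release 29 (58597 of 58870 identifiers matched by unversioned identifier), promoters from RefSeq. Counts limit precision by counting error and replicate spread, and they are reads, not molecules.

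Each experiment (1 line and drug with its DMSO, 12 samples) was fitted with edgeR 4.0.16 in R 4.3.3: TMM, filterByExpr, quasi-likelihood F-tests, Benjamini-Hochberg over all genes, called at an adjusted p under 0.05. Differences among lines used 36 samples and differences between drugs 24. SE is the log2 fold change over the square root of F, and intervals (95%) are normal ones from it. CPM in the text are scaled by TMM over all 48 samples. Samples were grouped by their labels. Replicate pairs differed by more than sampling noise, and unevenly (chi-square per gene 4.18 to 180). In MP41 DMSO it was 6.67 to 10.5 at 4 h and 56.7 to 180 at 24 h, and in MEL202 DMSO at 4 h 105 to 156. The groups of an experiment share their estimate of the spread. Same-numbered libraries correlated above 0.1 in 9 of 18 pairs, and in 13 the correlation was the best with the own number. The reported fits have no block, and a block is among the alternatives. Alternatives were RLE, library size alone, no filter, DESeq2 1.42.0, limma-voom (limma 3.58.1), the sum of the stranded columns, only the 6 samples compared, a replicate block and leaving out each library. The fits were also run on simulated data, and the outcome is not reported here. Pathway genes are named where called, at a mean of at least 1 CPM and among the 3 largest changes per direction and list. Likeness used log2(CPM + 0.5). The genes, lists and tests were chosen with earlier results of these data known. Results for 1 pathway list are not reported here.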

Additional observations from a re-analysis of the deposited data

Results flagged for a closer look

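The effect of FHT-1015 in 92-1 at 24 h differed from that at 4 h, by the test of the difference itself, for YAP1 (0.91 on the log2 scale), TEAD1 (-0.61), TEAD4 (-0.70), CCN1 (1.90), CCN2 (3.20), AMOTL2 (1.66), LATS2 (0.53) and AJUBA (1.30). CCN1, CCN2 and LATS2 were called lower at 4 h and higher at 24 h. In MEL202 the difference was -1.19 for TEAD4, which did not hold in 6 of 12 leave-one-out fits, and 1.14 for AJUBA, lost in 2 and without the filter on low counts.

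In MP41 it was 0.77 for YAP1, 0.68 for WWTR1, -0.90 for TEAD4, 1.51 for CCN1, 1.36 for CCN2 and 0.92 for AJUBA. YAP1 and WWTR1 there were lost in 10 of 12 such fits and TEAD4 in 6, and WWTR1 also without the filter and with the summed stranded columns. For CCN1, CCN2 and AJUBA the DMSO controls of MP41 also fell between the times. With IDE196 the difference was 1.01 for TEAD1, 1.09 for CCN2 and 0.53 for AJUBA, the last lost in 8 of 12.

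Among the lines the effect of FHT-1015 differed at 4 h for AMOTL2 (adjusted p 0.0354 by edgeR) and at 24 h for CCN1 (adjusted p 0.00133 by edgeR), CCN2 (adjusted p 0.0146 by edgeR) and AJUBA (adjusted p 0.0467 by edgeR). The AJUBA difference was lost with RLE, library size alone and no filter (adjusted p up to 0.718 by edgeR) and in 28 of 36 leave-one-out fits, the CCN2 difference in 2 and that of AMOTL2 in 11.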

How the results depend on the processing

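For each drug against DMSO, 574 of the values for single genes kept their sign and side of the threshold over the alternatives (the 4 h control of MP41 included), 12 gained a call, 9 lost one and 14 changed sign, where a value that changed sign is counted only as that. In the other comparisons (time, line, drug against drug and DMSO) 12 of 946 such values lost a call, in 7 gene and comparison pairs, each given beside its result, 26 gained one and 22 changed sign. These last came from 13 pairs, none of them called, such as WWTR1 and YAP1 between MP41 and MEL202. The counts of called genes that moved by more than 1.5 times were as follows. For FHT-1015 in MP41 at 4 h (0) there were 1 without the filter on low counts, 1 with DESeq2, 2 with limma-voom and 1 with only the 6 samples compared, which at 24 h (7) gave 3. For the 24 h against the 4 h effect in MEL202 (2), no filter gave 1. For DMSO at 24 h against 4 h, no filter gave 2 in 92-1 (0) and 3 in the IDE196 set (0), DESeq2 1 in each, and limma-voom 1 in 92-1 and 9 in MP41 (5). For differences among lines at 4 h (1), no filter, DESeq2, limma-voom and the summed stranded columns each gave 2, and at 24 h (3) limma-voom gave 6.

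Leaving out 1 library gave 3 to 5 called genes for FHT-1015 in 92-1 at 4 h (3 without replicate 2 of DMSO at 4 h), 5 to 8 at 24 h, 2 to 4 in MEL202 at 24 h, 5 to 7 in MP41 at 24 h, 0 to 2 for the time difference in MEL202 (0 without replicate 1 or 2 of FHT-1015 at 24 h), 3 to 6 for that in MP41, 4 to 8 for DMSO over time in MP41 (8 without replicate 3 of DMSO at 24 h), 0 to 2 and 1 to 3 for differences among lines at 4 h and 24 h (1 without the first FHT-1015 library of MEL202 at 24 h) and 3 to 6 for the drugs at 4 h (3 without replicate 1 of IDE196 at 4 h). The 2 in MEL202 at 24 h came without replicate 1 or 3 of DMSO or any FHT-1015 library at 24 h, and the 3 in MP41 without any DMSO library at 4 h, replicate 1 of DMSO at 24 h, replicate 1 of FHT-1015 at 4 h or replicate 3 of FHT-1015 at 24 h. With fewer samples the spread is estimated less well.

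A replicate block changed no call of the 10 genes for FHT-1015 against DMSO and no count of calls: it gave 5 and 7 called genes at 4 h and 24 h in 92-1, 0 and 4 in MEL202, and 0 and 7 in MP41, and 8, 2 and 6 for the time differences. Only CCN1 in MEL202 at 24 h changed sign with the block (0.0091). Deviations of same-numbered libraries correlated from -0.45 to 0.65, and in 13 of 18 pairs, among them every pair of MP41, the correlation was the best with the own number. No paired analysis was possible for IDE196 because its arms share no replicate numbers.

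For the drugs against DMSO these values changed sign. AJUBA in 92-1 at 4 h was -0.030, CCN2 in MEL202 at 4 h -0.12, TEAD1 in MP41 at 24 h -0.022 and ANKRD1 with IDE196 at 4 h 2.25 with limma-voom. With library size alone AMOTL2 in 92-1 at 24 h was 0.012, YAP1 with IDE196 at 24 h 0.036 and CCN1 in MEL202 at 24 h 0.027, and the last was 0.017 with RLE and 0.017 with DESeq2. With DMSO at 4 h as the control, MP41 at 24 h gave -1.05 for TEAD1, -0.43 for CCN1, -0.86 for CCN2 and -0.17 for AJUBA. Of these CCN1 and AJUBA lost their calls and TEAD1 gained one. YAP1 (0.16) and WWTR1 (0.23) also lost theirs, and LATS2 (-1.30) and AMOTL2 (-0.79) gained one. The causes were not tested. Reads limit WWTR1, CCN2 and ANKRD1 in 92-1. With DMSO of 4 h or 24 h alone the totals between lines stayed within 1.5 times, but the 2 higher and 2 lower in MP41 against MEL202 became 4 and 0 at 4 h and 1 and 2 at 24 h.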
